A study of Mus musculus with 4 samples.

Results

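The CCR2 monocyte chemokine axis was followed across the immune cells of the inflamed mouse spinal cord. It was taken as 5 genes, the 4 ligand genes Ccl2, Ccl7, Ccl8 and Ccl12 and the receptor gene Ccr2, chosen by name out of 32285 genes counted. All 5 were present in the files and detected in every library. CCR2 is a chemokine receptor that couples to inhibitory G proteins and is carried by classical (Ly6C-high) monocytes. Its ligand CCL2 draws these cells out of the bone marrow and into inflamed tissue, and in mice CCL7 and CCL12 also signal through CCR2. Mouse CCL8 is known mainly as a ligand of CCR8 and is listed with the others by homology and by its place in the same gene cluster. In experimental autoimmune encephalomyelitis (EAE), an autoimmune inflammation of the central nervous system set off by immunisation, CCR2-bearing monocytes are known to enter the spinal cord.

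The study measured single-cell RNA in sorted CD45+ cells (leukocytes, microglia included) of spinal cord from C57BL/6 mice with EAE. Animals had been given Reg1-MOs or Ctrl MO intracranially on day 9 after immunisation, and tissue was collected on day 16, with 2 libraries for each of the 2 treatments. MO is read here as morpholino, an antisense oligomer, and Reg1 is taken to stand for Regnase-1 (gene Zc3h12a), which cleaves the RNA of many cytokines, but the labels spell out neither. The labels give no age or sex and do not say whether a library is 1 animal or a pool, so the p-values below measure only the spread between these libraries. No healthy or untreated spinal cord was part of the comparison, so every animal had EAE and had been injected.

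The Reg1-MO libraries 1 and 2 held 8080 and 4953 cells after filtering, and the Ctrl MO libraries 1 and 2 held 7547 and 6273. Median depth per cell lay between 9947.5 and 12103 UMIs (unique molecular identifiers, 1 per captured transcript). Between 10 and 78 cell barcodes were shared by any pair of libraries. Unsupervised clustering without the 5 genes gave 27 clusters, of which 24 were named by marker genes with the suffix "-like" and 3 stayed unnamed with 1055 of the 26853 cells. Levels are given as CPM, UMIs of a gene per 1000000 UMIs of the class, and normalised CPM are scaled by TMM within a class. The library Ctrl MO 2 stood apart before any of the 5 genes was considered. It held 106 cells of the Arg1-led macrophage-like cluster 4, against 1489 and 474 in Reg1-MO 1 and 2 and 1042 in Ctrl MO 1, and it filled 777 of the 992 cells of the Saa3-led macrophage-like cluster 15. The fold changes that rest on it are given with and without it. Zc3h12a transcripts did not pass the test in all cells summed, with 58.5 and 63.6 normalised CPM in Reg1-MO and 58.8 and 72.4 in Ctrl MO (log2 fold change -0.10 ± 0.14 SE, edgeR quasi-likelihood adjusted p = 0.736). The labels do not say whether the oligomer blocks translation or splicing, so this transcript level does not check the labels.

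The 4 ligand genes lie together on chromosome 11 of the GRCm38 assembly, all on the plus strand and each with 3 exons, and Ccr2 lies on chromosome 9. In GENCODE M21, Ccl2 (ENSMUSG00000035385) runs from 82035571 to 82037453 and Ccl7 (ENSMUSG00000035373) from 82045712 to 82047525. Ccl12 (ENSMUSG00000035352) runs from 82101845 to 82103400 and Ccl8 (ENSMUSG00000009185) from 82115185 to 82116799. Ccl2 and Ccl7 are separated by 8258 bases, with Ccl11, an eosinophil chemokine gene, between Ccl7 and Ccl12. Ccr2 (ENSMUSG00000049103) runs from 124101950 to 124113557 on the plus strand. The longest identical stretch between any pair of ligand transcripts was 23 bases, between Ccl2 and Ccl7, and the other pairs shared 11 to 17. The 2 ligand promoters found in the RefSeq table of GRCm38.p6 are shown because Ccl12 and Ccl8, neighbours in the gene cluster, differed in how far microglia-like cells held their transcripts. Each line gives the 150 bases before the annotated start, 5′ to 3′ on the plus strand, with the TATAAA motif of a TATA box and the GAGGAA core bound by ETS factors in capitals.
Ccl12, chr11:82101695-82101844: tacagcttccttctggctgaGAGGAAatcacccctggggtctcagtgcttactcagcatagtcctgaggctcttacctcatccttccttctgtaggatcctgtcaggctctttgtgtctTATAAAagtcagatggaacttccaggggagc
Ccl8, chr11:82115035-82115184: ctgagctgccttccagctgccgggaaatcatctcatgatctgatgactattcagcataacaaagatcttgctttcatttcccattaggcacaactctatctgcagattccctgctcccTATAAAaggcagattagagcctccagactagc
TATAAA was found at -31 to -26 in Ccl12 and at -32 to -27 in Ccl8, and 12.4% of 32851 promoters held it within 250 bases before the start on either strand. GAGGAA was found at -130 to -125 in Ccl12 and on the minus strand at -240 to -235 in Ccl8, outside the bases shown, and 23.3% of promoters held it. GGGNNNNNCC (a kappa B pattern, 45.8% of promoters), TGANTCA (AP-1, 6.75%) and TTCNNNGAA (STAT, 7.02%) were searched on both strands and had no match in either window. These matches are descriptions of letters, and no binding was measured here.

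Microglia-like cells, named by resident markers such as Tmem119 and P2ry12, held most of the Ccl2 transcripts in both Reg1-MO libraries when cells were classed by cluster. They accounted for 74.9% and 82.4% of Ccl2 UMIs in Reg1-MO 1 and 2, against 56.8% and 36.3% in Ctrl MO 1 and 2. The groups did not overlap, with a mean of 78.6% ± 5.26 (SD, n = 2) in Reg1-MO and 46.6% ± 14.4 in Ctrl MO. The two-sided exact permutation test gave p = 0.33, the smallest that 2 against 2 libraries allow. Microglia-like cells were 15.2% and 21.1% of the cells of Reg1-MO and 7.82% and 9.72% of those of Ctrl MO, and a share of UMIs cannot tell more cells from more RNA per cell. Ccl12, a ligand gene of the mouse, had the highest share in microglia-like cells of the 4 ligands in every library. Its share in microglia-like cells was 89.2% and 94.7% in Reg1-MO, against 79.7% and 71.8% in Ctrl MO (exact permutation p = 0.33). The microglial share of Ccl2 was made up of 2 clusters described further on. The deep cluster 10, mixed in its markers, held 60.6% and 35.9% of Ccl2 UMIs in Reg1-MO and 43.2% and 1.11% in Ctrl MO, while cluster 11 held 14.3% and 46.5% in Reg1-MO and 13.6% and 35.2% in Ctrl MO. In neither cluster alone did the groups separate. The shares depended on how cells were classed. With a marker gate, which puts each cell in a class by its own marker UMIs, microglia-like cells held 46.2% and 72.9% of Ccl2 UMIs in Reg1-MO and 24.9% and 37.3% in Ctrl MO, so they held most of them in Reg1-MO 2 only. For Ccl12 the gate gave 58.0% and 87.4% in Reg1-MO and 37.6% and 70.0% in Ctrl MO, and the groups overlapped.

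Macrophage- and monocyte-like cells held most of the Ccl2 and Ccl7 transcripts that were not microglial. For Ccl2 the macrophage-like share was 13.1% and 5.21% in Reg1-MO, against 25.5% and 40.7% in Ctrl MO. For Ccl7, a ligand that also acts on CCR1 and CCR3, the microglia-like share was 63.8% and 75.6% in Reg1-MO and 50.7% and 21.0% in Ctrl MO. The macrophage-like share of Ccl7 was 22.6% and 9.74% in Reg1-MO and 39.0% and 67.1% in Ctrl MO, so the order of the groups was the opposite of the microglial one (exact permutation p = 0.33 for each). Shares of all classes add up to the same whole, so this order is not independent of the microglial one. Monocyte-like cells added 9.75% ± 0.644 of Ccl2 UMIs in Reg1-MO and 14.7% ± 2.12 in Ctrl MO (SD, n = 2 each).

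**Figure D1:**
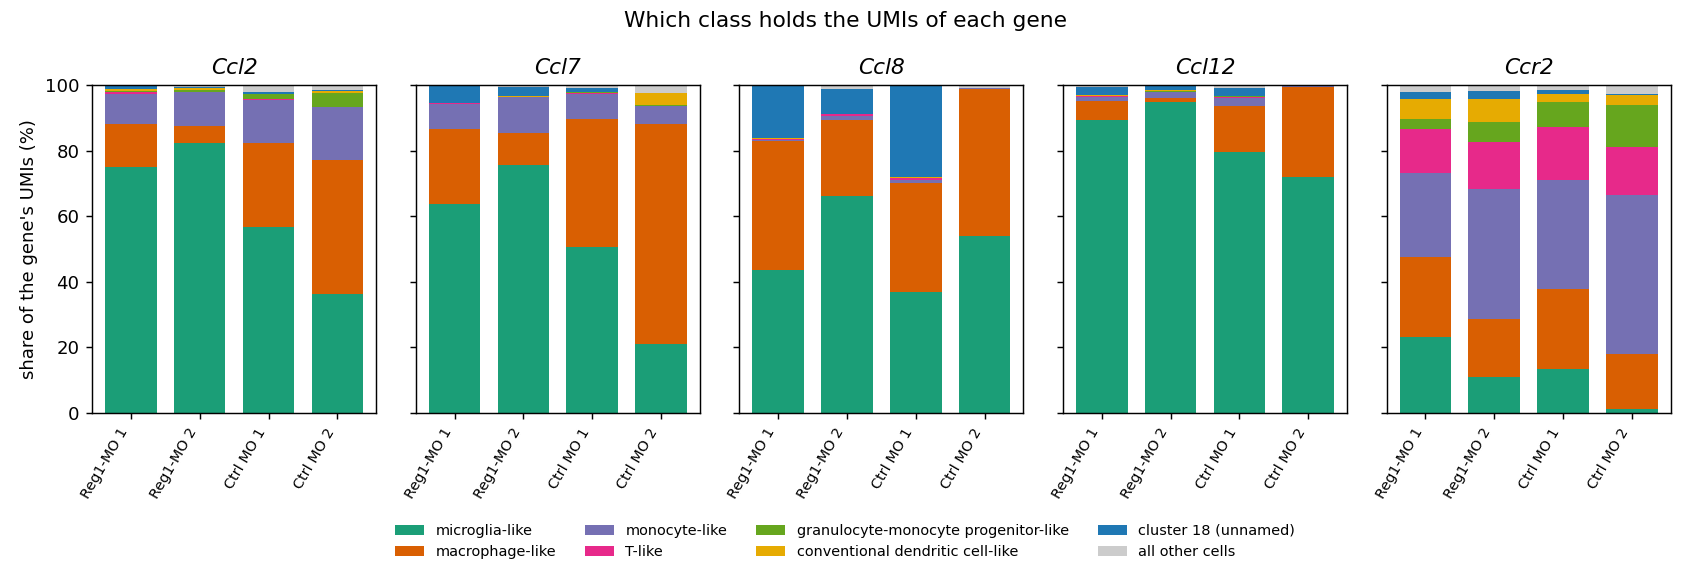
Share of each gene's UMIs (%, vertical axis) held by each class in the 4 libraries, Reg1-MO to the left of Ctrl MO in each panel. Microglia-like cells hold 89.2% and 94.7% of Ccl12 UMIs in Reg1-MO and 79.7% and 71.8% in Ctrl MO, while Ccr2 is spread over monocyte-, macrophage-, T- and microglia-like cells.

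Ccl8 was rare and came from few cells. Whole libraries held 12.1 and 2.15 normalised CPM in Reg1-MO and 10.98 and 4.10 in Ctrl MO, so the replicates of each group differed more than the groups did. An unnamed cluster of 299 cells was led by Ccl8 and by Ms4a7, Spp1, Pltp and Fcrls, genes of macrophages and microglia. It met too few of the fixed markers for a name. With doublets kept, however, a cluster led by the same genes was named macrophage-like. The cells of the unnamed cluster numbered 157 and 44 in Reg1-MO and 93 and 5 in Ctrl MO. They held 15.9% and 7.55% of Ccl8 UMIs in Reg1-MO and 27.7% in Ctrl MO 1. The cluster had 116 and 15.2 CPM of Ccl8 in Reg1-MO and 232 CPM in Ctrl MO 1, and Ctrl MO 2 had too few cells in it to compare. It also carried Ccl12, at 369 and 526 CPM in Reg1-MO and 211 CPM in Ctrl MO 1, and Ccr2, at 251 and 499 CPM in Reg1-MO and 141 CPM in Ctrl MO 1. Most other Ccl8 UMIs were in microglia-like cells, with 43.5% and 66.04% in Reg1-MO and 37.0% and 54.0% in Ctrl MO, and in macrophage-like cells. Single cells weighed heavily, since 1 cell with 70 UMIs held 44.0% of the Ccl8 UMIs of Reg1-MO 2.

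Across the named classes, Ccl2 stood highest in microglia-like cells, with a mean of 668 ± 373 CPM over the 4 libraries (SD). Monocyte-like cells followed with 367 ± 156 CPM and macrophage-like cells with 194 ± 78.3 CPM. The ranges of these 3 classes overlapped across libraries, but within each library microglia-like cells were above monocyte-like cells. The levels in Reg1-MO 1 and 2 were 768 and 1115 CPM in microglia-like against 512 and 412 CPM in monocyte-like cells. In Ctrl MO 1 and 2 they were 565 and 224 CPM in microglia-like against 399 and 146 CPM in monocyte-like cells. Progenitor-like cells had 70.9 ± 33.7 CPM and conventional dendritic cell-like cells 34.3 ± 16.7 CPM, and B/plasma-like cells lay between them with 59.9 ± 50.2 CPM, all with overlapping ranges. Plasmacytoid dendritic cell-like cells had 11.8 ± 9.02 CPM, neutrophil-like 8.94 ± 6.26 CPM, migratory dendritic cell-like 8.64 ± 7.41 CPM, NK/ILC-like 7.79 ± 6.54 CPM and T-like cells 6.20 ± 4.61 CPM, with overlapping ranges, and mast/basophil-like cells had 0.480 ± 0.960 CPM. The neutrophil-like value depended on the naming. The unnamed cluster 6 held 516 cells and was led by Cxcl3, Acod1 and Cxcl2. It had Ccl2 at 212 and 187 CPM in Reg1-MO and 543 and 126 CPM in Ctrl MO. At Leiden resolution 2 a cluster led by the same genes was named neutrophil-like (341 CPM, libraries summed). With the marker gate neutrophil-like cells had 48.5 and 44.8 CPM in Reg1-MO and 90.1 and 20.65 CPM in Ctrl MO. Ccl12 fell off more steeply, with 619 ± 514 CPM in microglia-like, 50.6 ± 8.72 CPM in macrophage-like and 37.5 ± 33.4 CPM in monocyte-like cells, and the last 2 did not differ beyond their spread. For Ccl7 the means were 91.0 ± 57.9 CPM in microglia-like, 51.7 ± 24.6 CPM in macrophage-like and 45.3 ± 29.7 CPM in monocyte-like cells, and all 3 ranges overlapped.

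T-like cells carried few ligand transcripts. The ratio of Ccl12 to Ccl2 UMIs in T-like cells was 0.5 and 0.867 in Reg1-MO and 0.410 and 0.375 in Ctrl MO. In Ctrl MO 2 it rested on 8 Ccl2 and 3 Ccl12 UMIs. Over whole libraries it was 0.526 and 1.08 in Reg1-MO and 0.406 and 0.662 in Ctrl MO. In monocyte-like cells it was 0.0671 and 0.200 in Reg1-MO and 0.0791 and 0.0117 in Ctrl MO, below the library's ratio in all 4. Thinned to 2000 UMIs per cell, 2.81% and 1.73% of T-like cells in Reg1-MO and 1.09% and 0.290% in Ctrl MO had a Ccl2 UMI. The part of free RNA in these UMIs was not tested.

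**Figure D2:**
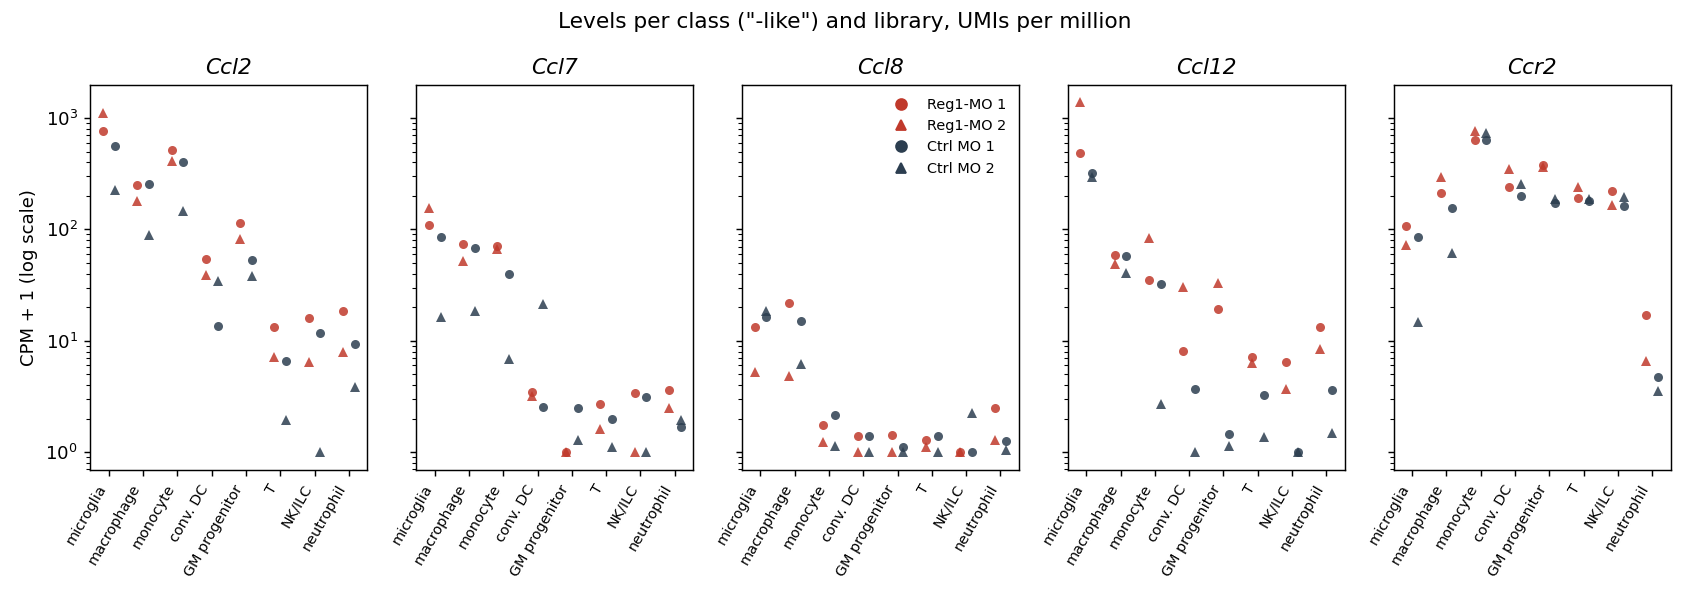
Level of each gene (CPM + 1, log scale) in 8 cell classes, Reg1-MO in red to the left and Ctrl MO in dark to the right, with circles for replicate 1 and triangles for replicate 2. Ccl2 is highest in microglia-like cells of every library, from 224 to 1115 CPM, and Ccr2 in monocyte-like cells, from 633 to 767 CPM.

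The question the design puts is whether these genes differed after Reg1-MO. In all cells summed, Ccl12 had 229 and 491 normalised CPM in Reg1-MO, against 107 and 51.3 in Ctrl MO. Both Reg1-MO libraries were above both controls, and the log2 fold change was 2.18 ± 0.52 (SE). It did not pass the edgeR test (adjusted p = 0.208), in which 0% of 16780 genes were called and 2891 had an unadjusted p under 0.05. DESeq2 called 1050 genes in these sums and gave Ccl12 2.20 with an adjusted p of 7.25e-05. Ccl2 had 435 and 456 normalised CPM in Reg1-MO and 263 and 77.5 in Ctrl MO (1.39 ± 0.58, edgeR adjusted p = 0.313). The Reg1-MO libraries lay close together and the controls far apart. Without Ctrl MO 2 the log2 fold change was 0.75, and without Ctrl MO 1 it was 2.52.

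Ccl7 followed the same order in all cells, with 72.7 and 68.6 normalised CPM in Reg1-MO and 44.5 and 9.23 in Ctrl MO (1.39 ± 0.71, edgeR adjusted p = 0.389). Its fold change also hung on the controls, with 0.66 without Ctrl MO 2 and 2.94 without Ctrl MO 1. Ccr2 had 197 and 219 normalised CPM in Reg1-MO and 165 and 129 in Ctrl MO (0.49 ± 0.17, edgeR adjusted p = 0.257). Neither gene's groups overlapped, a separation of 2 against 2 libraries that gives p = 0.33 in an exact permutation test. Its share among all tested genes is not given here. Summed over all cells, a gene's level also follows which cells a library holds. Neutrophil markers summed to 6733 and 40540 CPM in Reg1-MO and 45190 and 73880 CPM in Ctrl MO. Microglia markers summed to 2655 and 3850 CPM in Reg1-MO and 1324 and 1362 CPM in Ctrl MO. The part of this makeup in the values of summed cells was not tested.

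Within microglia-like cells, the ligand genes were higher in Reg1-MO without passing the test. Ccl2 had 801 and 1054 normalised CPM in Reg1-MO, against 586 and 220 in Ctrl MO (log2 fold change 1.20 ± 0.53, edgeR adjusted p = 0.882). Ccl12 had 502 and 1304 in Reg1-MO and 334 and 288 in Ctrl MO (1.54 ± 0.51, edgeR adjusted p = 0.882). For both genes the groups did not overlap, which for 2 against 2 libraries gives p = 0.33 in an exact permutation test. How often the groups did not overlap among all tested genes is not given here. Ccl7 had 114 and 146 in Reg1-MO and 88.5 and 15.1 in Ctrl MO (1.32 ± 0.81), and Ccl8 went the other way, with 12.9 and 3.99 in Reg1-MO and 15.9 and 17.3 in Ctrl MO (-0.97 ± 0.57). None of 13909 genes tested in microglia-like cells was called (0%), 671 had an unadjusted p under 0.05, and DESeq2 called 100.

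The size of these values depended on which libraries entered. Without Ctrl MO 2, the log2 fold change of Ccl2 in microglia-like cells was 0.66 and that of Ccl7 0.55, and without Ctrl MO 1 they were 2.07 and 3.09. Ccl12 depended less on the controls, with 1.43 and 1.63 without Ctrl MO 2 and 1, and more on the Reg1-MO libraries, with 0.72 without Reg1-MO 2 and 2.06 without Reg1-MO 1. At 2000 UMIs per cell, 60.8% and 57.6% of microglia-like cells in Reg1-MO had a Ccl2 UMI, against 53.2% and 18.3% in Ctrl MO (exact permutation p = 0.33; unthinned 94.2%, 84.0%, 91.0% and 35.6% in the same order). The log2 fold change of Ccl8 was -2.06 without Reg1-MO 1, -0.34 without Reg1-MO 2, -1.01 without Ctrl MO 1 and -0.90 without Ctrl MO 2, and 57.3% of all Ccl8 UMIs of Ctrl MO 2 were in 2 cells. Thinned in the same way, cells with a Ccl12 UMI were 46.2% and 68.5% in Reg1-MO and 40.4% and 27.5% in Ctrl MO. Neutrophil markers summed to 1867 and 9058 CPM within microglia-like cells of Reg1-MO and to 16870 and 20530 CPM within those of Ctrl MO, and their part in the values of this class was not tested.

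**Figure D3:**
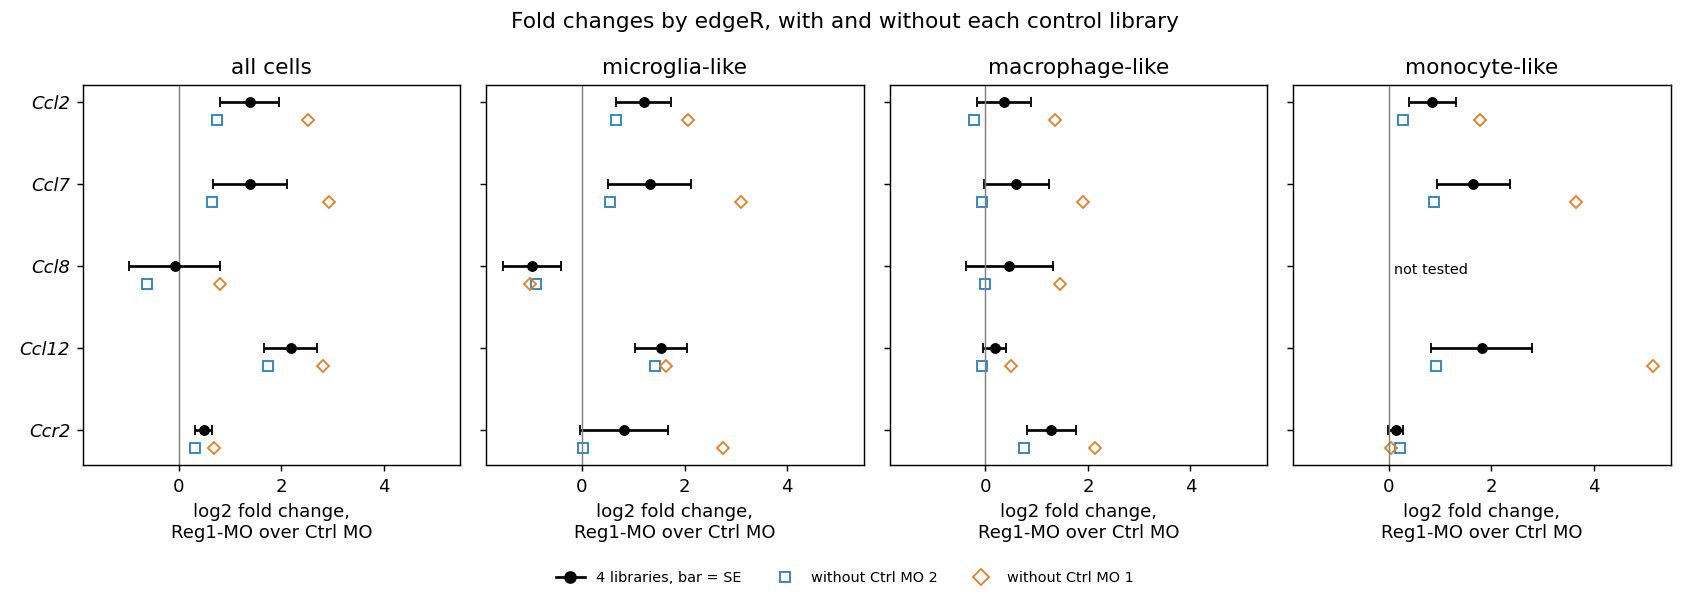
Log2 fold change of Reg1-MO over Ctrl MO by edgeR (horizontal axis) for the 5 genes in all cells and in 3 classes, as black points with SE bars, with the value without Ctrl MO 2 as blue squares and without Ctrl MO 1 as orange diamonds. Ccl2 in microglia-like cells lies at 1.20 with 4 libraries, at 0.66 without Ctrl MO 2 and at 2.07 without Ctrl MO 1.

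Microglia-like cells fell into 2 clusters. Cluster 11, led by Csmd3, Tanc2, Cd81 and Gpr34, numbered 367 and 736 cells in Reg1-MO and 207 and 592 in Ctrl MO. At Leiden resolution 2 a Csmd3-led microglia-like cluster held 333 and 718 cells in Reg1-MO and 166 and 40 in Ctrl MO. A separate Slc1a3-led one held 16 and 11 in Reg1-MO and 19 and 459 in Ctrl MO. With libraries summed, Ccl2 was at 1257 CPM in the Csmd3-led and 245 CPM in the Slc1a3-led cluster. The part of this makeup in the values of Ctrl MO 2 was not tested. In cluster 11 the Ccl2 level was 1259 and 1255 normalised CPM in Reg1-MO, against 1021 and 236 in Ctrl MO (1.00 ± 0.64, edgeR adjusted p = 0.520). Its Ccl12 level was 875 and 1599 in Reg1-MO and 721 and 308 in Ctrl MO (1.27 ± 0.49, edgeR adjusted p = 0.363, with 0% of 12063 genes called). Without Ctrl MO 2 the log2 fold changes in cluster 11 were 0.30 for Ccl2 and 0.78 for Ccl12, and without Ctrl MO 1 they were 2.42 and 2.01. Ccr2 was low there, at 7.71 and 8.02 in Reg1-MO and 4.98 and 4.33 in Ctrl MO. Cluster 10, led by Sdk1, Sparc, Nav3 and Cx3cr1, numbered 865 and 311 cells in Reg1-MO and 383 and 18 in Ctrl MO. Its Ccr2 level was 121 and 129 CPM in Reg1-MO and 96.3 and 129 CPM in Ctrl MO. At 2000 UMIs per cell, 18.7% and 17.4% of cluster 10 cells in Reg1-MO and 15.1% in Ctrl MO 1 had a Ccr2 UMI, against 1.68%, 1.10% and 1.96% of cluster 11 cells in the same libraries.

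The cells of cluster 10 were deep and mixed in their markers. Their median depth was 58680 and 35620 UMIs in Reg1-MO and 64950 and 40440 in Ctrl MO, against 14000 to 19780 UMIs in cluster 11. Microglia markers summed to 4866 and 7313 CPM in Reg1-MO and 3354 and 3345 CPM in Ctrl MO, against 6823 to 13130 CPM in cluster 11. Monocyte markers summed to 3957 and 2817 CPM in Reg1-MO and 6924 and 6168 CPM in Ctrl MO, against 238 to 1545 CPM in cluster 11. In Ctrl MO they were thus above the microglia markers. Macrophage markers summed to 3393 and 1889 CPM in Reg1-MO and 4316 and 2928 CPM in Ctrl MO, against 529 to 857 CPM in cluster 11. Arg1, an enzyme of macrophages, had 1126 and 471 CPM in Reg1-MO and 1599 and 713 CPM in Ctrl MO. The part of merged or mixed cells in the Ccr2 of this cluster was not tested. Without cluster 10, microglia-like cells were cluster 11 alone, with log2 fold changes of 1.00 for Ccl2, 1.46 for Ccl7 and 1.27 for Ccl12.

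In macrophage-like cells the ligand genes did not separate the groups. Ccl2 had 257 and 182 normalised CPM in Reg1-MO, against 255 and 86.5 in Ctrl MO (0.36 ± 0.52, edgeR adjusted p = 0.767). Ccl12 had 59.7 and 48.1 in Reg1-MO and 56.4 and 38.6 in Ctrl MO (0.18 ± 0.23), and Ccl7 had 74.0 and 51.3 in Reg1-MO and 65.9 and 17.004 in Ctrl MO (0.60 ± 0.63). The groups overlapped for all 3 genes. Without Ctrl MO 2 the values were -0.21 for Ccl2, -0.06 for Ccl12 and -0.06 for Ccl7. Without Ctrl MO 1, Ccl2 was 1.36 and Ccl7 1.91, while Ccl12 was 0.50. With the unnamed Ccl8-led cluster counted as macrophage-like, Ccl12 was 0.68 (adjusted p = 0.434). None of 13036 genes was called (0%), 1478 had an unadjusted p under 0.05, and DESeq2 called 155. In cluster 4, which Ctrl MO 2 shares with only 106 cells, Ccl2 had 262 and 177 normalised CPM in Reg1-MO and 263 and 191 in Ctrl MO (log2 fold change -0.06, and -0.25 without Ctrl MO 2). Ccl12 in cluster 4 had 60.6 and 48.3 in Reg1-MO and 60.7 and 4.15 in Ctrl MO (0.43 ± 0.64), with -0.14 without Ctrl MO 2 and 3.72 without Ctrl MO 1. The 187 cells of cluster 25 in Ctrl MO 2 held 1080 Ccl12 UMIs of that library, against 9 in its cluster 4 and 61 in its cluster 15.

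The difference between the treatment effects in microglia-like and macrophage-like cells was tested directly, with the library as a block. It was 0.85 ± 0.34 on the log2 scale for Ccl2 (edgeR adjusted p = 0.869, unadjusted p = 0.0551) and 1.21 ± 0.57 for Ccl12 (adjusted p = 0.869). For Ccl7 it was 0.94 ± 0.38, for Ccl8 -1.33 ± 0.57 and for Ccr2 -0.09 ± 0.61. None of 14316 genes was called (0%), so a difference between the 2 classes was not detectable in these libraries.

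Monocyte-like cells, the class highest in Ccr2 by cluster, had Ccl2 at 540 and 417 normalised CPM in Reg1-MO, against 390 and 141 in Ctrl MO (0.85 ± 0.46, edgeR adjusted p = 0.264). Ccl7 had 74.1 and 67.1 in Reg1-MO and 38.1 and 5.62 in Ctrl MO (1.65 ± 0.72, edgeR adjusted p = 0.185). Ccl12 had 36.3 and 83.4 in Reg1-MO and 30.8 and 1.64 in Ctrl MO (1.81 ± 0.99, edgeR adjusted p = 0.265). All 3 genes were higher in both Reg1-MO libraries, and the lowest value was that of Ctrl MO 2 each time. Such a separation of 2 against 2 libraries gives p = 0.33 in an exact permutation test. The share of all tested genes that separated likewise is not given here. Ccl8, with 9 and 2 UMIs in Reg1-MO and 12 and 1 in Ctrl MO, was too rare to test. None of 11241 genes was called (0%), 3477 had an unadjusted p under 0.05, and DESeq2 called 1076. Without Ctrl MO 2, the log2 fold change was 0.28 for Ccl2, 0.88 for Ccl7 and 0.93 for Ccl12. Without Ctrl MO 1 it was 1.77 for Ccl2, 3.65 for Ccl7 and 5.16 for Ccl12. Both groups held both clusters of the class, in different proportions. The Plac8-led cluster 3 held 875 and 491 cells in Reg1-MO and 393 and 136 in Ctrl MO, and the Vcan-led cluster 12 held 90 and 121 in Reg1-MO and 363 and 391 in Ctrl MO. Cluster 12 was the larger of the 2 in Ctrl MO 2 only. Ms4a4c, Cxcl10, Ifi205 and Cxcl9 were also among the leading genes of cluster 3. With doublets kept, a cluster led by Cxcl9, Il1rn and Ifi205 was named macrophage-like, and only a Vcan-led cluster was named monocyte-like. Within cluster 3 and within cluster 12 the groups overlapped for Ccl2. In cluster 3 Ccl2 had 545 and 467 normalised CPM in Reg1-MO and 527 and 67.2 in Ctrl MO (0.76 ± 0.83, -0.06 without Ctrl MO 2 and 2.92 without Ctrl MO 1). In cluster 12 Ccl2 had 326 and 172 in Reg1-MO and 202 and 191 in Ctrl MO (0.31 ± 0.21, 0.27 without Ctrl MO 2). Ccl12 in cluster 3 had 38.4 and 99.7 in Reg1-MO and 51.4 and 3.62 in Ctrl MO (1.17 ± 0.90, 0.39 without Ctrl MO 2 and 4.22 without Ctrl MO 1), and the groups overlapped.

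**Figure D4:**
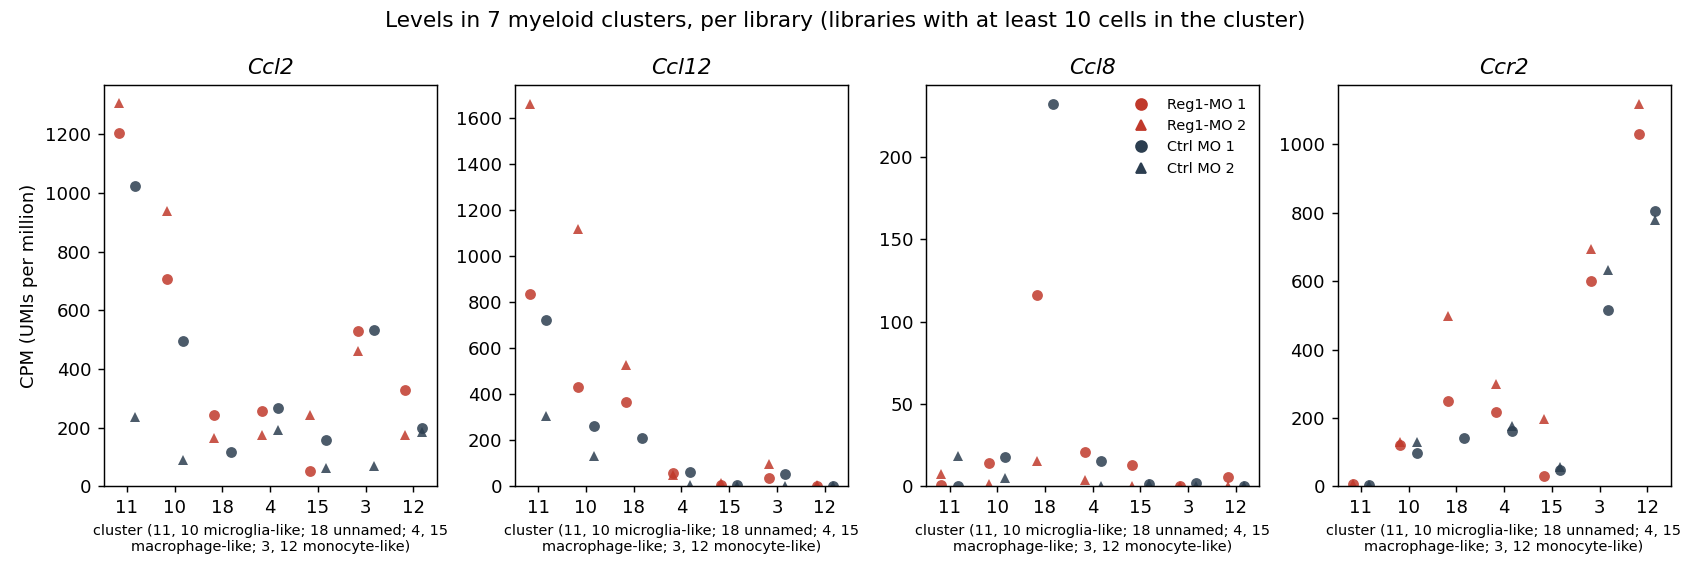
Level of Ccl2, Ccl12, Ccl8 and Ccr2 (CPM, linear axis from 0) in 7 myeloid clusters, Reg1-MO in red left of Ctrl MO in dark, with 1 symbol per library that had at least 10 cells in the cluster. Ccl8 stands out in the unnamed cluster 18, at 116 and 15.2 CPM in Reg1-MO and 232 CPM in Ctrl MO 1, and Ccr2 in the monocyte-like clusters 3 and 12.

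Ccr2 was carried above all by monocyte-like cells, at 692 ± 66.5 CPM over the 4 libraries (mean and SD). The lowest monocyte-like value, 633 CPM, lay above every value of the other classes named by cluster. With the marker gate monocyte-like cells had 323 and 529 CPM in Reg1-MO and 300 and 352 CPM in Ctrl MO, and NK/ILC-like cells, with 393 and 289 CPM in Reg1-MO and 331 and 366 CPM in Ctrl MO, were higher in 3 of 4 libraries. Progenitor-like cells came next with 274 ± 110.0 CPM, then conventional dendritic cell-like cells with 260 ± 65.0 CPM, T-like cells with 198 ± 26.5 CPM, NK/ILC-like cells with 185 ± 27.3 CPM and macrophage-like cells with 180.1 ± 99.0 CPM. The ranges of these 5 neighbours overlapped across libraries. Within each library, however, conventional dendritic cell-like cells were above T-, NK/ILC- and macrophage-like cells. Plasmacytoid dendritic cell-like cells had 96.9 ± 40.3 CPM, microglia-like cells 68.9 ± 39.8 CPM and B/plasma-like cells 50.5 ± 31.9 CPM. Migratory dendritic cell-like cells had 27.9 ± 21.2 CPM and mast/basophil-like cells 20.2 ± 24.1 CPM. Neutrophil-like cells were lowest with 7.02 ± 6.23 CPM, though the ranges of these low classes overlapped. At 2000 UMIs per cell, 63.5% and 66.6% of monocyte-like cells in Reg1-MO and 63.9% and 72.7% in Ctrl MO had a Ccr2 UMI. The same share in neutrophil-like cells, taken as background, was 2.16% and 0.913% in Reg1-MO and 0.817% and 0.374% in Ctrl MO, with medians of 4738 to 6195 UMIs per cell against 11380 to 12960 in monocyte-like cells. T-like cells stood well above this background, with 30.4% and 32.2% in Reg1-MO and 26.8% and 27.2% in Ctrl MO. Within them the gamma delta T-like cluster had the highest level, 553 and 391 CPM in Reg1-MO and 387 and 403 CPM in Ctrl MO.

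Monocyte-like cells nevertheless held only part of the Ccr2 UMIs of a library, 25.6% and 39.6% in Reg1-MO and 33.4% and 48.5% in Ctrl MO (exact permutation p = 0.667). Macrophage-like cells held 24.4% and 17.8% in Reg1-MO and 24.2% and 16.5% in Ctrl MO. For macrophage-like cells the groups overlapped. T-like cells held 13.6% and 14.4% in Reg1-MO and 16.1% and 14.7% in Ctrl MO. Microglia-like cells held 23.1% and 10.9% in Reg1-MO and 13.5% and 1.32% in Ctrl MO. Of this, cluster 10 held 22.9 and 10.3 percentage points in Reg1-MO and 13.4 and 0.936 percentage points in Ctrl MO. The marker gate drew the classes differently, with 170 and 47 macrophage-like cells in Reg1-MO and 126 and 248 in Ctrl MO, and 2740 and 1177 monocyte-like cells in Reg1-MO and 1967 and 1138 in Ctrl MO. By the gate monocyte-like cells held 60.8% and 67.4% of Ccr2 UMIs in Reg1-MO and 64.4% and 70.1% in Ctrl MO.

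The receptor level per UMI of monocyte-like cells differed by less than the spread between libraries. Ccr2 in monocyte-like cells had 674 and 776 normalised CPM in Reg1-MO, against 618 and 702 in Ctrl MO (0.13 ± 0.14, edgeR adjusted p = 0.563), and the groups overlapped. Within the Vcan-led cluster 12, however, Ccr2 rose, with 1026 and 1102 in Reg1-MO and 816 and 800 in Ctrl MO (0.40 ± 0.09, edgeR adjusted p = 0.0235). There 705 of 9436 genes were called (7.47%). That cluster held 90 and 121 cells in Reg1-MO, and the call was lost with DESeq2 (adjusted p = 0.0566), without Reg1-MO 2 (adjusted p = 0.177) and without Ctrl MO 2 (adjusted p = 0.0967), while the fold change lay between 0.35 and 0.45 with single libraries left out. In the Plac8-led cluster 3 Ccr2 had 620 and 701 in Reg1-MO and 511 and 618 in Ctrl MO (0.23 ± 0.18, edgeR adjusted p = 0.519, and 0.37 without Ctrl MO 2).

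In macrophage-like cells Ccr2 had 216 and 299 normalised CPM in Reg1-MO, against 152 and 58.7 in Ctrl MO (1.29 ± 0.48, edgeR adjusted p = 0.437). The groups did not overlap, and the share of cells with a Ccr2 UMI at 2000 UMIs was 26.6% and 37.9% in Reg1-MO and 20.4% and 9.17% in Ctrl MO (exact permutation p = 0.33). Without Ctrl MO 2 the log2 fold change was 0.75, and without Ctrl MO 1 it was 2.14. Without the clusters 15 and 25, which Ctrl MO 2 mostly filled, the class was cluster 4 alone. There Ccr2 had 221 and 302 in Reg1-MO and 161 and 176 in Ctrl MO (0.64 ± 0.17, edgeR adjusted p = 0.280, with 0.0164% of genes called). T-like cells had 194 and 233 in Reg1-MO and 179 and 187 in Ctrl MO (0.22 ± 0.11, edgeR adjusted p = 0.527), with 0% of 12404 genes called and 1321 at an unadjusted p under 0.05. Conventional dendritic cell-like cells had 242 and 351 in Reg1-MO and 196 and 253 in Ctrl MO (0.40 ± 0.23, edgeR adjusted p = 0.511), and here 0% of 10025 genes were called, with 1240 at an unadjusted p under 0.05. NK/ILC-like cells had 224 and 167 in Reg1-MO and 167 and 196 in Ctrl MO (0.13 ± 0.18, edgeR adjusted p = 0.827, 0.933% of genes called).

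The class led by Elane, Mpo, Ctsg and Prtn3, genes of granulocyte-monocyte progenitors, gave 2 calls. Its cells numbered 69 and 83 in Reg1-MO and 270 and 235 in Ctrl MO, and 4.44% of 11227 genes were called. At Leiden resolution 2 the class split. A Gria3-led cluster had Ccr2 at 353 CPM and an Elane-led one at 18.1 CPM, libraries summed. The Gria3-led cluster held 59 and 64 cells in Reg1-MO and 178 and 146 in Ctrl MO. The Elane-led one held 10 and 19 in Reg1-MO and 92 and 89 in Ctrl MO. The part of this split in the values of the class was not tested. Ccr2 rose in the class taken whole, with 380 and 350 normalised CPM in Reg1-MO and 177 and 188 in Ctrl MO (1.00 ± 0.10, edgeR adjusted p = 0.0130). The call was lost without Ctrl MO 1 (adjusted p = 0.0850), without Ctrl MO 2 (adjusted p = 0.0675) and with doublets kept (adjusted p = 0.219), while the fold change stayed between 0.92 and 1.05 when single libraries were left out. Ccl12 rose as well, with 43 and 87 UMIs in Reg1-MO and 4 and 1 in Ctrl MO (6.18 ± 0.52, edgeR adjusted p = 0.00922). Of these UMIs, 36 and 69 in Reg1-MO were in the 3 cells with the most. Those 3 cells carried 235 and 341 UMIs of microglia markers, against a median of 4 per cell of the class in both libraries. Without them, Ccl12 was at 3.20 and 6.88 CPM in Reg1-MO and at 0.117 and 0 CPM in Ctrl MO, where 3 cells were left out as well. With doublets kept, the Ccl12 value was 2.03 (adjusted p = 0.526). The part of microglial RNA in this call was not tested. Neutrophil-like cells, with 0.0847% of 10625 genes called, had Ccr2 at 15.7 and 6.13 in Reg1-MO and 3.74 and 2.42 in Ctrl MO (1.71 ± 0.45, edgeR adjusted p = 0.178). This class was itself taken as background above, so its level cannot be set against that background.

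Ligand and receptor transcripts were spread unevenly over single cells, and in different ways. The 10% of cells with the most Ccl2 UMIs held 83.3% and 85.3% of them in Reg1-MO and 92.1% and 97.2% in Ctrl MO. For Ccr2 the same 10% held 50.1% and 57.5% in Reg1-MO and 58.9% and 72.9% in Ctrl MO. Cells with at least 50 Ccl2 UMIs numbered 430 and 211 in Reg1-MO and 189 and 17 in Ctrl MO. They held 63.5% and 60.5% of the Ccl2 UMIs of the Reg1-MO libraries and 53.0% and 18.7% of those of the Ctrl MO libraries. The highest single cell had 419 and 664 Ccl2 UMIs in Reg1-MO and 281 and 165 in Ctrl MO.

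Among microglia-like cells at 2000 UMIs, Ccl7 was found more often in cells that also had Ccl2. It was present in 17.2% and 15.1% of Ccl2-positive and 4.79% and 4.32% of Ccl2-negative cells of Reg1-MO, and in 16.4% and 6.36% of Ccl2-positive and 5.09% and 1.02% of Ccl2-negative cells of Ctrl MO. Ccl12 was present in 52.0% and 77.4% of Ccl2-positive cells of Reg1-MO and in 46.8% and 52.7% of those of Ctrl MO. In Ccl2-negative cells it was present in 37.3% and 56.4% in Reg1-MO and in 33.1% and 21.8% in Ctrl MO. All 4 libraries showed the same order, as a description of cells that share a library.

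**Figure D5:**
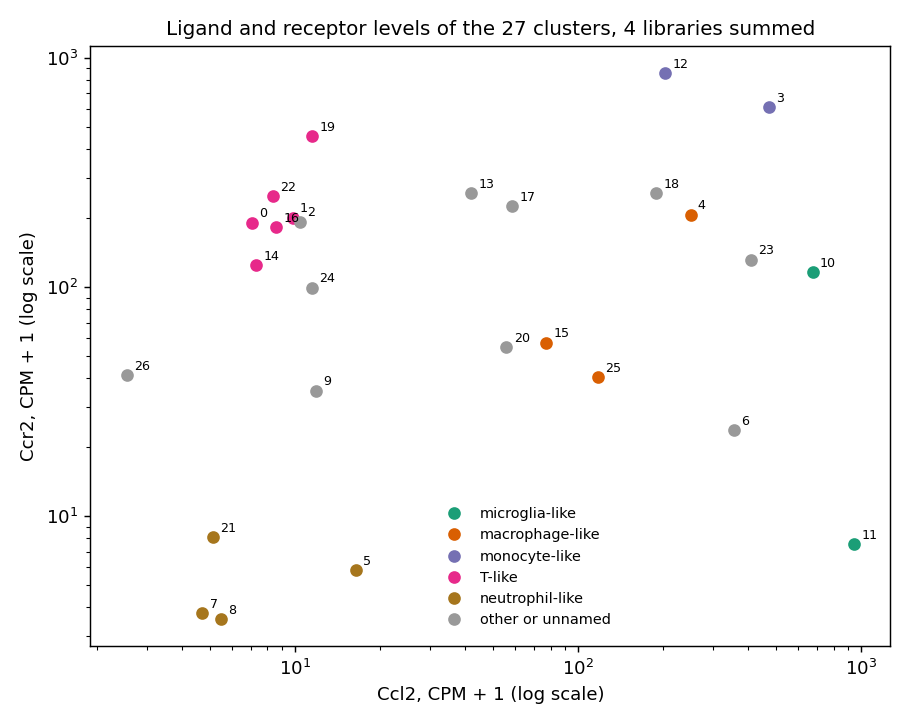
Ccl2 level (CPM + 1, log scale, horizontal axis) against Ccr2 level (CPM + 1, log scale, vertical axis) in the 27 clusters, with the 4 libraries summed, coloured by class and labelled by cluster number. The microglia-like cluster 11 is high in Ccl2 and low in Ccr2, T-like clusters show the reverse, and the monocyte-like clusters 3 and 12 are high in both.

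Over 26 clusters of at least 50 cells, the pattern of Ccl2 was most like that of Ccl7 among the members, with a Pearson correlation of log2(CPM + 1) of 0.92, against 0.79 for Ccl12, 0.58 for Ccl8 and 0.21 for Ccr2. Among 9265 genes with at least 20 CPM in 1 cluster, the closest to Ccl2 were Atf3 and Ifi204 (0.94) and Fcgr1, Csf1r and Mfsd1 (0.93). Csf1r encodes the receptor for the macrophage growth factor CSF1 and Fcgr1 an Fc receptor of myeloid cells. Closest to Ccl8 were Fcrls (0.82), Fblim1 and Siglec1 (0.81) and Itga9 and Abcc3 (0.79), with Siglec1 known as a macrophage lectin. Closest to Ccr2 were Ifi203 (0.91), Capn2 and Ahnak (0.90) and Mndal and Sfxn3 (0.89). These correlations are descriptions, since the clusters share libraries.

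Other genes of the pathway were read from 8 lists. In microglia-like cells none of their tested members was called. Of 14 other CC chemokine genes 11 were tested, with a median log2 fold change of -0.19 against 0.01 over all genes, 4 above and 7 below 0. The most abundant, Ccl4 and Ccl3, had 1635 and 3292 normalised CPM (Ccl4) and 745 and 1680 (Ccl3) in Reg1-MO, against 1544 and 3243 (Ccl4) and 838 and 2280 (Ccl3) in Ctrl MO. For both genes the 2 libraries of a group differed more than the groups did. Of 8 other receptor genes for these ligands 3 were tested, with a median of 0.03. Ccrl2, an atypical chemokine receptor, had 450 and 432 in Reg1-MO and 401 and 460 in Ctrl MO. The 17 CCR2 signalling genes (G proteins, kinases, arrestins and their partners) had a median of -0.07, with 6 above and 11 below 0, and were led in level by Gnai2 and Dock2. The 16 NF-kB and cytokine signalling genes, many of them known to act upstream of Ccl2, had a median of 0.12, with 9 above and 7 below 0. Il1b in that list had 1635 and 1224 in Reg1-MO and 1356 and 621 in Ctrl MO. The 8 RNA decay regulators, which include Zc3h12a itself, had a median of -0.25, with 2 above and 6 below 0. The 14 classical monocyte genes had a median of -0.26, with 4 above and 10 below 0, the 8 tested non-classical monocyte genes one of 0.13 and the 9 tested egress and growth factor genes one of 0.13. Chil3, the most abundant classical monocyte gene in this class, had 788 and 320 in Reg1-MO and 3350 and 1099 in Ctrl MO.

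In monocyte-like cells no list member was called either. The 14 classical monocyte genes, several of which had named the clusters, had a median of -0.90 against -0.01 over all genes, with 3 above and 11 below 0. Chil3, a chitinase-like protein of monocytes and neutrophils, had 4615 and 2404 normalised CPM in Reg1-MO and 16000 and 22842 in Ctrl MO (-2.47 ± 0.36, edgeR adjusted p = 0.0560). Plac8 had 4480 and 4196 in Reg1-MO and 2486 and 1041 in Ctrl MO (1.30 ± 0.40, edgeR adjusted p = 0.106). The groups did not overlap for either gene, and cluster 3, led by Plac8, made up a larger part of the class in Reg1-MO than in Ctrl MO. The 16 NF-kB and cytokine signalling genes had a median of 0.62, with 13 above and 3 below 0. Il1b had 4565 and 4435 in Reg1-MO and 2460 and 1420 in Ctrl MO (1.21 ± 0.27, edgeR adjusted p = 0.067), and Fos, the second by level, had 1201 and 1148 in Reg1-MO and 1010 and 1302 in Ctrl MO. Of the 10 monocyte egress and growth factor genes 9 were tested and all 9 lay above 0, with a median of 0.61, among them Cebpb with 4253 and 3513 in Reg1-MO and 3008 and 2604 in Ctrl MO. The 3 tested receptor genes lay above 0 as well, with Ccr1 at 517 and 424 in Reg1-MO and 430 and 343 in Ctrl MO and Ccrl2 at 600 and 510 in Reg1-MO and 269 and 155 in Ctrl MO. Of the other CC chemokine genes 10 were tested, with a median of -0.30, 3 above and 7 below 0. The most abundant were Ccl6, with 875 and 735 in Reg1-MO and 1060 and 795 in Ctrl MO, and Ccl4, with 393 and 223 in Reg1-MO and 504 and 629 in Ctrl MO. The CCR2 signalling genes had a median of -0.06, the non-classical monocyte genes one of 0.35 and the RNA decay regulators one of 0.02.

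Macrophage-like cells had no called member in the 8 lists either. Their NF-kB and cytokine genes had a median of 0.49, with 10 above and 6 below 0, and their classical monocyte genes one of -0.04, with 6 above and 8 below 0. In this class the most abundant CC chemokine genes were Ccl5, with 2224 and 1902 normalised CPM in Reg1-MO and 875 and 434 in Ctrl MO, and Ccl6, with 1056 and 957 in Reg1-MO and 1891 and 982 in Ctrl MO. In progenitor-like cells list members were called in both directions. Csf1r rose, with 122 and 120.3 in Reg1-MO and 52.1 and 53.7 in Ctrl MO (1.20 ± 0.11, edgeR adjusted p = 0.0114), and so did Tnf (1.49) and Ms4a4c (0.91). Chil3 (-1.52), Fn1 (-0.73) and Hp (-0.51) fell. Csf1r is also a gene of microglia, and the summed microglia markers in this class were 296 and 325 CPM in Reg1-MO and 126 and 131 CPM in Ctrl MO. In NK/ILC-like cells Plac8 rose, with 352 and 273 in Reg1-MO and 169 and 95.5 in Ctrl MO (1.24 ± 0.21, edgeR adjusted p = 0.00531), and Chil3 (-2.62) and Ifitm6 (-3.33) fell. All 3 are known from monocytes or neutrophils. Within NK/ILC-like cells monocyte markers summed to 753 and 600 CPM in Reg1-MO and 641 and 444 CPM in Ctrl MO, and neutrophil markers to 477 and 257 CPM in Reg1-MO and 533 and 1696 CPM in Ctrl MO. Over whole libraries monocyte markers summed to 5043 and 4653 CPM in Reg1-MO and 10480 and 13620 CPM in Ctrl MO. The part of RNA from such cells in these calls was not tested. In neutrophil-like cells Thbs1 rose, with 394 and 425 in Reg1-MO and 170 and 174 in Ctrl MO (1.25 ± 0.14, edgeR adjusted p = 0.0301). No list member was called in T-like or conventional dendritic cell-like cells or in all cells summed.

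Endothelial cells, astrocytes and fibroblasts can make CCL2 in inflamed tissue and lie outside a CD45 gate. Fibroblast and mural cell markers summed to 0.630 and 1.19 CPM in Reg1-MO and 0.471 and 1.26 CPM in Ctrl MO. Endothelial markers summed to 91.9 and 74.97 CPM in Reg1-MO and 77.8 and 48.1 CPM in Ctrl MO, with 6 or 7 of 8 detected and Cldn5 at 0 in all 4 libraries. Astrocyte markers, all 7 of them detected, summed to 66.8 and 49.6 CPM in Reg1-MO and 42.0 and 53.6 CPM in Ctrl MO. The part of such cells in the ligand values was not tested.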

How the data were processed

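Sorted CD45+ spinal cord cells of EAE mice were profiled with the 10x Genomics 3' kit in 2 Reg1-MO and 2 Ctrl MO libraries. The deposited matrices hold raw UMI counts per gene and barcode, which per the file headers came from Cell Ranger 5.0.1. Per the submitters' processing notes, the genome build was mm10, and Seurat 4.0 is named with no role. Not given in the sources used here are annotation and cell calling settings. In all there were 29379 barcodes, with 75472324 to 174552218 UMIs per library.

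A cell needed 500 UMIs, 200 genes and no more than 10% of mitochondrial UMIs, and 1.64% to 4.26% of barcodes were left out. Scrublet in scanpy 1.11.5 (Python 3.11.15) scored doublets, and the highest scores were removed at 0.8% per 1000 barcodes, since its automatic threshold marked 421, 1, 251 and 0 cells in Reg1-MO 1 and 2 and Ctrl MO 1 and 2. Clustering used 3000 variable genes without the 5 members, 40 components, 15 neighbours and Leiden resolution 1 (igraph 0.11.9). A cluster took the name of the list with the highest mean score among those with at least 3 markers raised 2-fold and detected in 10% of its cells. This rule was set after the clusters had been seen. The members, lists and markers were chosen with earlier results of these data known.

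Counts were summed per library and class, for classes with at least 50 cells in every library, and the summed counts were tested with edgeR 4.0.16 (limma 3.58.1, R 4.3.3): filterByExpr with a minimum count of 10, TMM, quasi-likelihood F-test, Benjamini-Hochberg adjustment over all genes of a class, called under 0.05. SE is the log2 fold change divided by the root of F. Shares were compared by two-sided exact permutation tests (scipy 1.17.1). Gene positions came from GENCODE M21 and promoters from RefSeq, in which 3 of the 5 members were found and Ccr2 was left out because its start lies inside the annotated gene. Alternatives were DESeq2 1.42.0, RLE factors, no filter, a replicate block, each library left out, doublets kept, resolution 2 and a marker gate per cell. Fits without named clusters, with the Ccl8-led cluster, for single clusters (with each library left out in 4 of them) and for monocyte- and macrophage-like cells together were added after seeing the data. Genes named from a list are its called members, up to 4 by smallest p, or, with none called, its 2 most abundant ones. A gene of these lists is not reported here. On simulated counts, 46.5% of 4-fold changes were recovered in microglia-, 73% in macrophage-, 93.5% in monocyte-like cells and 74% in all cells. False calls numbered 8, 24, 29 and 21 in the same order. The counts were drawn gene by gene from the means, library sizes and dispersions of the class. They held no differences that many genes of a library share, so the shares recovered may not hold for the real libraries.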

Additional observations from a re-analysis of the deposited data

How the results depend on the processing

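Over 51 fold changes of the 5 genes and 450 alternatives, 379 kept their direction and side of the threshold, 42 became calls, 7 lost a call and 22 turned. Only Ccl12 and Ccr2 in progenitor-like cells and Ccr2 in cluster 12 were calls at the start. The lost calls are therefore all among the alternatives of these, and most fold changes had no call to lose. The counts of called genes moved most. DESeq2 called 1050 genes in all cells, 100 in microglia-, 155 in macrophage-, 1076 in monocyte-, 78 in T-, 31 in NK/ILC-, 63 in conventional dendritic cell- and 137 in neutrophil-like cells, and 302 in cluster 12. Without a filter on low counts the calls were 215, 126, 41, 2879, 548, 191, 715 and 605 in the same classes, 1755 in progenitor-like cells and 1092 in cluster 12. Doublets kept gave 419 calls in monocyte-, 37 in NK/ILC-, 0 in progenitor- and 0 in neutrophil-like cells. Resolution 2 gave 2 in neutrophil-like cells. The marker gate gave 5 in T-, 6 in NK/ILC- and 4 in neutrophil-like cells. Leaving out the clusters Ctrl MO 2 mostly fills, so that only cluster 4 remained, gave 2 in macrophage-like cells. With single libraries left out the calls ranged from 0 to 37 in all cells, 0 to 0 in microglia-, 0 to 2095 in macrophage-, 0 to 3367 in monocyte-, 0 to 422 in T-, 77 to 347 in NK/ILC-, 0 to 1002 in conventional dendritic cell-, 21 to 1057 in progenitor- and 105 to 275 in neutrophil-like cells, and 124 to 801 in cluster 12. The replicate numbers name libraries only. A replicate block gave 31 calls in all cells, 1299 in monocyte-, 155 in NK/ILC-, 16 in conventional dendritic cell- and 262 in neutrophil-like cells, and the replicate differences of the groups correlated at 0.354 in all cells and 0.466 in microglia-like but -0.0694 in conventional dendritic cell-like cells. Fold changes that turned were Ccl8 in all cells (-1.78 to 0.80 over single libraries left out, with 0.68 without Reg1-MO 2) and, in macrophage-like cells, Ccl2 (-0.21 to 1.36), Ccl7 (-0.058 to 1.91), Ccl12 (-0.057 to 0.50) and Ccl8 (-1.30 to 1.45, with -0.00022 without Ctrl MO 2). The lowest of these for Ccl2, Ccl7 and Ccl12 was without Ctrl MO 2, and without the clusters it fills, in cluster 4 alone, Ccl2 was -0.056. In NK/ILC-like cells Ccr2 ranged from -0.11 to 0.31 and was -0.019 with the marker gate, which gave Ccl2 -0.062 in neutrophil-like cells. In cluster 12 Ccl2 ranged from -0.19 to 0.73 and Ccl7 from -1.19 to 1.97, both lowest without Reg1-MO 1. In cluster 3 Ccl2 ranged from -0.061 to 2.92, in cluster 4 Ccl2 from -0.37 to 0.21, Ccl7 from -0.30 to 0.81, Ccl8 from -1.38 to 4.90 and Ccl12 from -0.145 to 3.72, and in cluster 11 Ccl8 from -3.25 to 3.14. For shares, in percentage points of Reg1-MO minus Ctrl MO, leaving out single libraries gave 21.9 to 42.3 for Ccl2, 19.1 to 48.8 for Ccl7 and 12.3 to 20.1 for Ccl12 in microglia-like cells and -15.9 to -0.80 for Ccr2 in monocyte-like cells. The Ccl12 share was 22.1 with doublets kept, 21.8 at resolution 2 and 18.9 with the marker gate, and the Ccr2 share -19.2 with doublets kept. Cells with a UMI ranged from 6.03 to 40.9 for Ccl2 and 12.3 to 34.6 for Ccl12 in microglia-like cells, 11.8 to 23.1 for Ccr2 in macrophage-like cells and -7.62 to 1.10 for Ccr2 in monocyte-like cells, where doublets kept gave 8.82 and the marker gate 6.45. These settings changed the monocyte-like class itself, which held 99 and 124 cells in Reg1-MO and 399 and 457 in Ctrl MO with doublets kept, 2740 and 1177 in Reg1-MO and 1967 and 1138 in Ctrl MO with the gate, and 965 and 612 in Reg1-MO and 756 and 527 in Ctrl MO otherwise. The cause of these changes was not tested. At this depth Ccl8 was too rare to test in monocyte-like cells.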
